A study of Mus musculus with 3 samples.

Results

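Of the 15769 peaks of MTR4-bound RNA mapped in KIT-positive cells of the mouse testis, 1651 (10.5%, interval 10.0 to 11.0) were narrow peaks just inside an end of a protein-coding gene. A peak belonged to this set when it was exactly 20 nt wide, when its midpoint lay inside a protein-coding gene longer than 5 kb and within 1000 nt of the gene's first or last base, and when it lay in no protein-coding gene of 5 kb or less and in no gene of a small RNA (rRNA, tRNA, snRNA, snoRNA or miRNA). They are called end peaks here, and were 10.9% of the 15093 peaks of 20 nt. LACE-seq locates the RNA that a protein touches: UV-C light fixes the contact, an antibody pulls the protein down, and cDNA copied from the trimmed RNA is sequenced. There was 1 group of 3 samples, wild type for the gene (labelled Mtr4WT), from mice at postnatal day 8; testis cells were sorted with an antibody to KIT and irradiated at 400 mJ, and MTR4 was precipitated. Neither an input nor a control precipitation was used here, and whether the samples share an animal is not stated. Results rest on 1 list, recorded under replicate 3, with a position and a strand sign for each peak but no score or read count. Whether the sign is that of the RNA or of the sequenced read is not given in the sources used here, so every orientation below is that of the sign as deposited. Depth behind a peak is therefore unknown, no p-value is given, and each interval is a 95% interval that covers counting error only. A peak list gives no expression, so the sorted cell type could not be checked against its markers.

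MTR4, the product of Mtrex, is a nuclear helicase that feeds RNA into the exosome, the complex that degrades or trims transcripts from their 3′ end. Among its known substrates in mammalian cells are short, unstable RNAs made around gene starts, on the gene's strand and against it, and transcripts that end prematurely near the start. MTR4 reaches them with adaptors of the NEXT complex, which act on short unprocessed RNA, and of the PAXT connection, which act on longer polyadenylated RNA. RNA of both directions can therefore arise at a gene start, whereas near a transcript end the mature message of the gene is usually the main RNA.

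In all, 187 end peaks (11.3%) lay wholly inside a window of 300 nt for which sequence was at hand, from 250 nt upstream to 50 nt downstream of a listed start of their gene. The windows of the 6 genes with the most end peaks among them are given below in lower case, 5′ to 3′ on the strand of the gene. The 20 nt of the end peak are in capitals. These windows lie mostly upstream of a listed start. Among all end peaks at transcript starts, the median position was 205 nt downstream of the nearest listed start, and 17.5% lay upstream. The windows therefore do not show the typical place of such a peak. Sequences are from RefSeq on GRCm38.p6 (mm10), and all coordinates are 1-based on mm10.
Hmces promoter, chr6:87913726-87914025, plus strand: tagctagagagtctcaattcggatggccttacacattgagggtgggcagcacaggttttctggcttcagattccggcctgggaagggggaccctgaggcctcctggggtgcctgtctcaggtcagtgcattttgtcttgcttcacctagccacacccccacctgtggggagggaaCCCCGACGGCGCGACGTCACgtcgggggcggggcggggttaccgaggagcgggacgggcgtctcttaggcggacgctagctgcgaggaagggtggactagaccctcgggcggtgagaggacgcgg
Mcmbp promoter, chr7:128740380-128740679, minus strand: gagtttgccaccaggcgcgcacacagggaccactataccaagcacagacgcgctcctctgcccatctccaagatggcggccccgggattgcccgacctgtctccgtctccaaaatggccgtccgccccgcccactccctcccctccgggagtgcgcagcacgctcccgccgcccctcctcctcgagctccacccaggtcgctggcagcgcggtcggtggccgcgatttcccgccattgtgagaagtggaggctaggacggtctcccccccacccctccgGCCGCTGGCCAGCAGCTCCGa
Pradc1 promoter, chr6:85451253-85451552, minus strand: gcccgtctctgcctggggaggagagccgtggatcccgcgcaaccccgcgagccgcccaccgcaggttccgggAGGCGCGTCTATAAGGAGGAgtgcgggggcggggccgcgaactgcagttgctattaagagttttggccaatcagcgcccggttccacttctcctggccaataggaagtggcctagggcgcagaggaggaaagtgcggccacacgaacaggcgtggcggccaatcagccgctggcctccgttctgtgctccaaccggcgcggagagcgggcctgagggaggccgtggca
Jmjd6 promoter, chr11:116843400-116843699, minus strand: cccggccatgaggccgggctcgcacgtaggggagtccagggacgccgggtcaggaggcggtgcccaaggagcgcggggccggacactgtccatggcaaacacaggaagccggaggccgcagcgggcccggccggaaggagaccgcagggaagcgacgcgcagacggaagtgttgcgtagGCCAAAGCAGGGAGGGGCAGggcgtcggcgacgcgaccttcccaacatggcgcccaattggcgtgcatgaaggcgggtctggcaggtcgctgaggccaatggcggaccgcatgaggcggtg
Prf1 promoter, chr10:61297586-61297885, plus strand: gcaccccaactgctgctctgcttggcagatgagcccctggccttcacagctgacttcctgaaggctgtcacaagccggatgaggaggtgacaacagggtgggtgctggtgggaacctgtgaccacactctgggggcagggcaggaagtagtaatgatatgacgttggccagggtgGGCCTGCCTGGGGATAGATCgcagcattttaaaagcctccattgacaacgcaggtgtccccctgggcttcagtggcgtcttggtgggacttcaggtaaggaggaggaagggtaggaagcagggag
Rmi1 promoter, chr13:58402347-58402646, plus strand: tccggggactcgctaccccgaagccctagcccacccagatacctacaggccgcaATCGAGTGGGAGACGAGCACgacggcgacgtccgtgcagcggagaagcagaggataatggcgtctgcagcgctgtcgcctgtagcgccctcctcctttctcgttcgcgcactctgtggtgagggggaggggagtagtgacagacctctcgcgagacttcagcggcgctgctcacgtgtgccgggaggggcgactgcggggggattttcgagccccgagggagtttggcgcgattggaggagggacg
Hmces encodes a protein that shields abasic sites in single-stranded DNA, Mcmbp a binding partner of the MCM replicative helicase, Jmjd6 a hydroxylase with a JmjC domain, Prf1 the pore-forming protein perforin, and Rmi1 a member of the Bloom helicase complex. Pradc1 encodes a secreted protein with a protease-associated domain. In these 6 windows the peak centre lay between position −186 from the listed start (upstream), in Rmi1, and position 39 (downstream), in Mcmbp. The printed peaks of Mcmbp and Prf1 bore the sign opposite to the printed strand, and those of the other genes bore its sign. Peaks upstream of a listed start count as inside the gene because the gene record also holds transcripts that begin further out.

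Where the strand of the gene was known, end peaks lay at transcript starts far more often than at transcript ends. The promoter table gave the strand of 13412 of the 16853 protein-coding genes over 5 kb, and with it the orientation of 1310 end peaks. Of these, 1128 (86.1%, interval 84.1 to 87.9) lay inside the start and 182 (13.9%, interval 12.1 to 15.9) inside the end. The other 341 end peaks, among them all 43 on chromosome 18, lay in genes whose strand was not used here; 180 of them (52.8%) were at the end with the lower coordinate, and they enter only the totals. Only 29 end peaks (1.76%) were near an end of more than 1 gene, and each was assigned to the nearest.

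Per length of sequence, the first 1000 nt of these genes held 85.6 narrow peaks per Mb (1130 peaks, counted by window whichever gene a peak was assigned to, with positions near both a start and an end left out), against 6.20 per Mb in the interior of genes of known strand. The start density was thus 13.8-fold that of the interior (interval 12.9 to 14.7). The last 1000 nt held 13.8 per Mb (182 peaks), 2.22-fold that of the interior (interval 1.90 to 2.57). Starts were 6.22-fold denser than ends (interval 5.31 to 7.31). Over all end windows, with genes of unknown strand included, density was 49.8 per Mb, 8.09-fold the 6.15 per Mb of the interior (interval 7.66 to 8.55).

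The shape of the density differed between starts and ends. Inside the start it was 108 per Mb in the first 100 nt, was highest, at 138 per Mb, between 200 and 300 nt, and was 36.8 per Mb between 700 and 800 nt, still above the interior. Upstream of the start, outside every protein-coding gene, narrow peaks also stood at 107 per Mb in the nearest 100 nt but at 51.6 in the next 100 nt and at 19.7 between 300 and 400 nt. The decline away from the start was slower into the gene than out of it. Inside the transcript end the profile had no such crest: 4.54 per Mb in the last 100 nt, from 6 peaks, 21.8 per Mb between 400 and 500 nt before the end, from 29, and 10.5 per Mb between 900 and 1000 nt. The median distance was 336 nt from a start and 503 nt from an end. The first 250 nt held 421 of 1128 start peaks (37.3%, interval 34.5 to 40.2) but 32 of 182 end-side peaks (17.6%, interval 12.7 to 23.8), where an even spread over the window gives 25%. Measured against the nearest listed start of the same gene, start peaks had a median position 205 nt downstream, with quartiles of 56 and 400 nt downstream, and 197 of 1128 (17.5%) lay upstream of it. At the limit of the window, 82 end peaks lay more than 900 nt from the gene end, and 45 interior narrow peaks lay in the 100 nt beyond the window.

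**Figure D1:**
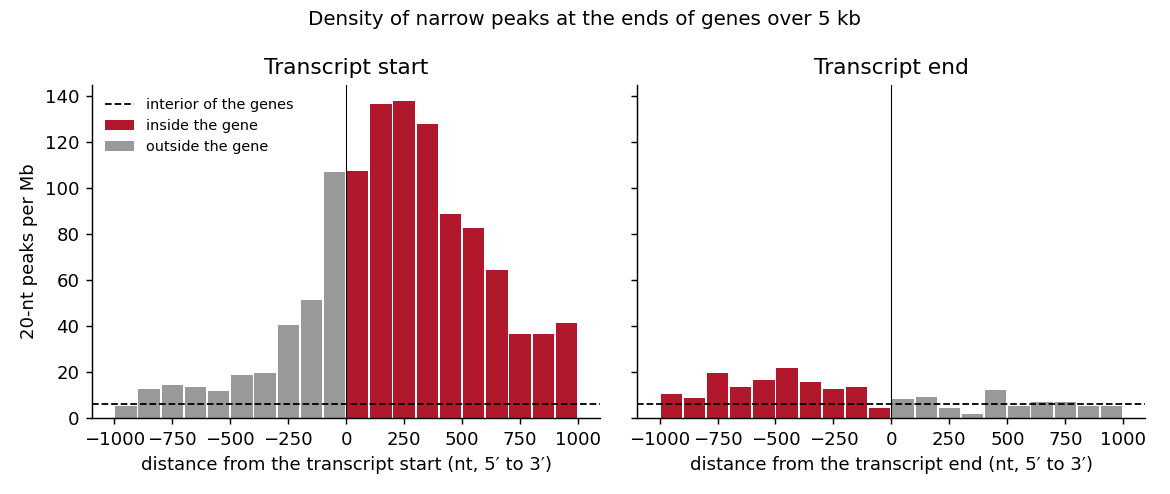
Narrow peaks per Mb (y axis) in classes of 100 nt by distance in nt from the transcript start (left) or end (right) of protein-coding genes over 5 kb, inside the gene in red and outside in grey; the dashed line is the gene interior at 6.20 per Mb. The start shows a crest of 138 per Mb between 200 and 300 nt, and the end stays at or below 21.8 per Mb.

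Most genes with an end peak had 1. Altogether, 1482 of the 16853 protein-coding genes over 5 kb (8.79%) held an end peak; 1023 of the 13412 of known strand (7.63%) held one inside the start and 168 (1.25%) inside the end. Of the 1482, 1328 held 1 end peak, 143 held 2, 10 held 3 and 1 held 7, so that 0.914% of all genes over 5 kb held 2 or more. Start and end were hit together in 18 genes: 10.7% of the 168 with an end-side peak (interval 6.89 to 16.3) and 1.76% of the 1023 with a start peak. Genes without an end-side peak held a start peak in 7.59% of cases, and the interval of the difference, 3.13 points, ran from −0.731 to 8.73 and did not exclude 0. An interior narrow peak was also present in 327 of the 1023 genes with a start peak (32.0%, interval 29.2 to 34.9), in 47 of the 168 with an end-side peak (28.0%, interval 21.7 to 35.2), and in 22.7% of genes of known strand with neither. Mtrex itself held 0 end peaks.

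The gene with the most end peaks was Fosb, a subunit of the AP-1 transcription factor induced soon after stimulation (chromosome 7, 19302696 to 19310118, minus strand), with 5 inside its start and 2 inside its end. The start peaks were centred 128, 168, 328, 768 and 808 nt from the start, and the end-side peaks 714 and 994 nt from the end. All 7 bore the plus sign, opposite to the strand of the gene. Calm3, 1 of the genes of the calcium sensor calmodulin (chromosome 7, 16915379 to 16924032, minus strand), held 3 end peaks inside its end, at 351, 411 and 771 nt, also all plus and opposite to the gene. These genes carried their peaks on 1 strand throughout.

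In the other genes with the most end peaks, the sign was opposite to the gene, the same as the gene or mixed. Spred1, an inhibitor of Ras and MAP kinase signalling on the plus strand (chromosome 2, 117121071 to 117182279), had 3 start peaks at 119, 279 and 559 nt, all with the minus sign, opposite to the gene. Tcfl5, a basic helix-loop-helix factor of male germ cells on the minus strand (chromosome 2, 180621956 to 180642691), had 3 start peaks at 221, 281 and 621 nt, again all minus, here the same as the gene. Qk, an RNA-binding regulator of splicing (chromosome 17, 10206471 to 10319361, minus strand), had start peaks at 231, 631 and 851 nt, the middle one plus and the others minus. Mixed signs were also found at the starts of Hmces (chromosome 6, 87913907 to 87936619) and Nfkbie, an inhibitor of NF-κB (chromosome 17, 45555700 to 45563169), with 1 plus and 2 minus each, and of Mcmbp (chromosome 7, 128696441 to 128740429), with 2 plus and 1 minus. The predicted genes Gm51464, with 3 plus peaks at its start on the plus strand, and Gm21698, with 3 minus peaks at its end on the minus strand, complete the 10 genes with the most end peaks. Near Gm21698 on chromosome 5, the minus-strand genes Gm21663, Gm7347 and 5031410I06Rik held 2 minus peaks each inside the end. They were named after their values were seen. Whether reads there map to more than 1 place was not checked. Of the 18 genes hit at both ends, 8 had all their end peaks opposite in sign to the gene, 4 had none opposite and 6 had both signs. Eif4a1, the helicase of translation initiation, and Ihh, the Indian hedgehog ligand, both on the minus strand, had plus peaks at both ends, and Prf1 and the matrix protein gene Efemp2, both on the plus strand, had minus peaks at both: all 4 opposite to the gene. The 4 genes with no opposite peak at either end are not named here, so the named ones do not stand for all 18. Egln2, a prolyl hydroxylase of the oxygen response, and Pradc1 had 1 peak of each sign, plus at the end and minus at the start.

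Where a gene end held more than 1 end peak, neighbours lay a median of 220 nt apart, over 142 neighbouring pairs, and 27 pairs were under 100 nt apart. Both peaks bore the same sign in 87 pairs (61.3%, interval 53.1 to 68.9), at a median of 200 nt, and opposite signs in 55, at a median of 260 nt. Of all end peaks, 71.7% bore the minus sign, so most pairs would share a sign even if their signs were independent. Whether neighbours shared a sign more often than that was not tested. The smallest distance was 0, the same 20 nt listed with both signs.

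At transcript ends, but not clearly at transcript starts, the sign of the peaks differed with the strand of the gene. At starts, the minus sign prevailed whichever way the gene ran: 387 of 544 start peaks in genes on the plus strand (71.1%, interval 67.2 to 74.8) and 443 of 584 in genes on the minus strand (75.9%, interval 72.2 to 79.2). The difference was −4.72 points, with an interval from −9.86 to 0.432 that did not exclude 0. At ends, the sign differed with the strand of the gene: minus in 57 of 76 peaks on plus-strand genes (75%, interval 64.2 to 83.4) and in 55 of 106 on minus-strand genes (51.9%, interval 42.5 to 61.2), a difference of 23.1 points (interval 8.89 to 35.7). With the window at 500 nt in place of 1000 nt the difference at ends was 14.7 points and its interval, −5.60 to 32.7, no longer excluded 0. Interior narrow peaks differed by 5.36 points in the same direction (interval 2.65 to 8.06).

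Put as orientation, 528 of 1128 start peaks (46.8%, interval 43.9 to 49.7) and 108 of 182 end-side peaks (59.3%, interval 52.1 to 66.2) bore the sign opposite to their gene, a difference of 12.5 points (interval 4.71 to 19.99). The interior share was 52.8%. Start minus interior came to −5.94 points (interval −9.16 to −2.70), and end-side minus interior to 6.59 points, with an interval from −0.804 to 13.6 that did not exclude 0. Just beyond the transcript end the orientation turned: 25 of 72 narrow peaks there (34.7%, interval 24.8 to 46.2) were opposite to the gene, 24.6 points fewer than inside it (interval 11.0 to 36.7). Just upstream of starts the opposite share was 53.8% of 331 peaks, and inside minus outside came to −6.97 points (interval −13.0 to −0.844). Along the first 1000 nt, the opposite share of start peaks stayed between 43.1% and 48.4% in classes of 250 nt. Along the last 1000 nt it was 56.3% next to the end and 67.6% between 750 and 1000 nt, with wide intervals that overlap (39.3 to 71.8 and 50.8 to 80.9).

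Start peaks also had an excess of the minus sign beyond that of the list as a whole. The minus sign was borne by 830 of 1128 start peaks (73.6%, interval 70.9 to 76.1), 112 of 182 end-side peaks (61.5%, interval 54.3 to 68.3), 64.4% of the 6077 interior narrow peaks and 61.8% of all peaks of 20 nt. Start peaks exceeded interior peaks by 9.22 points (interval 6.32 to 12.0), whereas end-side peaks differed from interior peaks by −2.82 points, with an interval from −10.2 to 4.05. Narrow peaks just upstream of starts had a like share, 74.3% of 331, and the interval of its difference from start peaks, −5.88 to 4.82 points, includes 0. What the skew towards 1 genomic strand comes from was not tested.

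**Figure D2:**
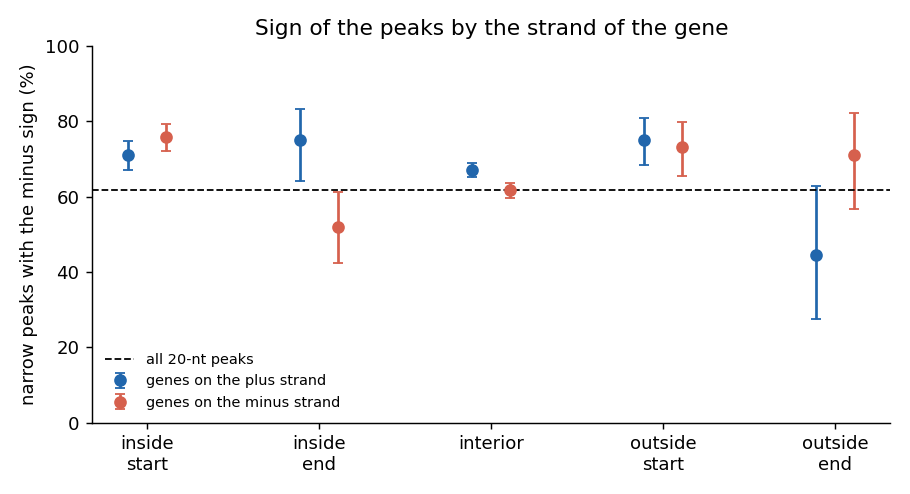
Share of narrow peaks with the minus sign (y axis, %) by place (x axis) for genes on the plus strand (blue) and the minus strand (red), with 95% Wilson intervals; the dashed line is all peaks of 20 nt, 61.8%. Inside starts both strands lie above the line, at 71.1% and 75.9%, while inside ends they part, at 75% and 51.9%.

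Start peaks, like interior narrow peaks, were found more often at genes with CpG-rich promoters. In the outermost promoter window of each gene, the median number of CpG dinucleotides was 25 (quartiles 17 and 34) in the 1023 genes with a start peak, 16 (quartiles 6 and 27) in the 168 with an end-side peak, and 17 (quartiles 6 and 26) in all 13412 genes of known strand. The median GC share was 65.7%, 60.0% and 58.3%. Genes whose window held 4 or fewer CpG had a start peak in 1.23% of cases (34 of 2766), and the share was higher in each further class, up to 18.8% (147 of 784) at 40 or more. Genes with 30 or more CpG exceeded genes with fewer than 10 by 13.6 points (15.7% against 2.07%, interval 12.1 to 15.1). The same difference was 13.4 points in genes of up to 20 kb, 12.0 points between 20 and 50 kb, and 13.2 points over 50 kb. For end-side peaks it was 0.0670 points (1.30% against 1.23%, interval −0.458 to 0.674). Interior narrow peaks showed the same order, from 13.4% of genes in the lowest class to 36.2% in the highest. Their difference between 30 or more and fewer than 10 CpG was 15.4 points (32.5% against 17.1%, interval 13.3 to 17.6). The link to CpG was thus not particular to starts. Expression is not given and was not held fixed.

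**Figure D3:**
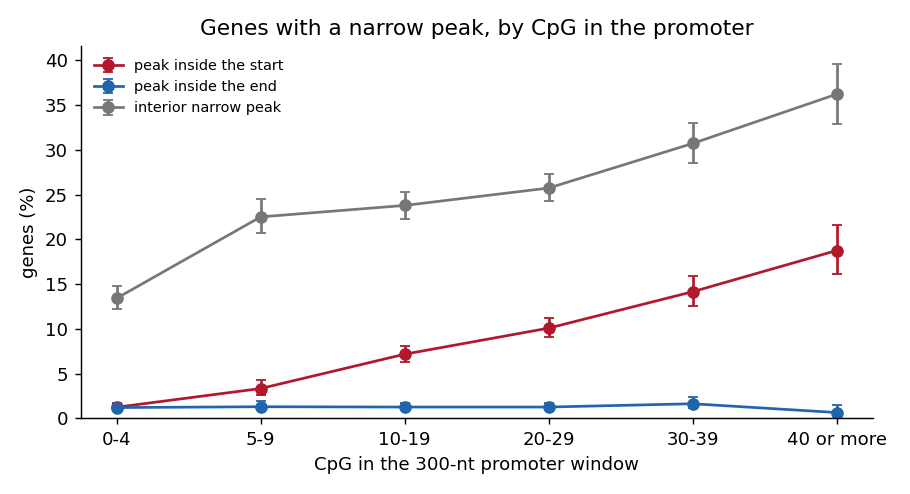
Share of genes over 5 kb (y axis, %) that hold a narrow peak inside the start (red), inside the end (blue) or in the interior (grey), by the number of CpG in the 300-nt promoter window (x axis), with 95% Wilson intervals. The start share rises from 1.23% to 18.8% and the interior share from 13.4% to 36.2%, and the end share stays between 0.638% and 1.62%.

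Short promoter motifs were counted in the same windows, on either strand. The GC box (GGGCGG), bound by Sp1-type factors, was found in 72.6% of windows of genes with a start peak (interval 69.8 to 75.3) against 52.8% of all windows. The TATA box (TATAAA) was found in 5.57% against 9.36%, the CCAAT box (CCAAT) in 32.9% against 38.5%, the ETS core (CGGAAG) in 28.0% against 24.1%, and the cyclic AMP response element (TGACGTCA) in 3.23% against 2.51%. Rarer were the NRF1 motif, searched as 1 fixed run of 10 letters, in 2.64% against 1.60%, and the YY1 motif, likewise of 10 letters, in 2.35% against 1.49%. The donor site that U1 snRNA pairs with (GTAAGT) was in 2.74% against 5.64%, and the polyadenylation signal (AATAAA) in 9.58% against 13.5%. The windows lie mostly upstream of a listed start and were searched on either strand, so neither count describes the RNA at start peaks. The median GC share was 65.7% in windows of genes with a start peak and 58.3% in all windows. Whether the motif shares differ beyond this base composition was not tested. None of these motifs contains another, and no match was read as a site. Within the windows the peak was on average slightly richer in GC than its surroundings. The 20 nt of the 187 peaks had a GC share of 71.8% ± 12.7 (SD over peaks) and the rest of the windows 69.2% ± 7.83. Peak minus rest of its own window had a mean of 2.61 points ± 11.6 (SD over peaks) and a median of 3.21. The peak was the richer in 114 of 187, and the difference was not tested. In the 48 plus-sign peaks, read on the genomic plus strand, G made up 42.3% and C 32.7%; in the 139 minus-sign peaks G made up 34.0% and C 36.8%. Read on the strand of its own sign, each kind thus held more G than C, as did the rest of their windows (36.2% G against 32.3% C, and 34.1% G against 35.4% C on the plus strand).

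Starts and ends also differed by gene length. A start peak was found in 5.79% of genes of 5 to 10 kb (135 of 2333), 5.43% of 10 to 20 kb, 10.3% of 50 to 100 kb and 10.9% of 100 to 300 kb (157 of 1441), although the window was 1000 nt in all of them. An end-side peak was found in 2.36% of genes of 5 to 10 kb (55 of 2333) and 0.833% of genes of 100 to 300 kb (12 of 1441); among 425 genes over 300 kb, 44 held a start peak and 1 an end-side peak. The median length was 38064 nt for genes with a start peak, 18001 nt for genes with an end-side peak and 25483 nt for all genes of known strand.

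**Figure D4:**
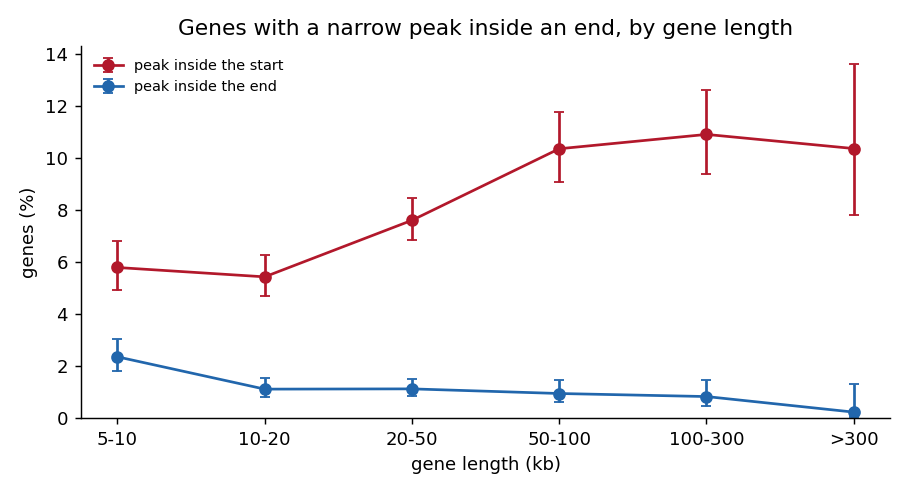
Share of genes (y axis, %) with a narrow peak inside the start (red) or the end (blue) by gene length in kb (x axis), with 95% Wilson intervals. From the shortest to the 100 to 300 kb class the start share goes from 5.79% to 10.9% and the end share from 2.36% to 0.833%.

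Other neighbours of the peaks showed smaller differences or none. A protein-coding gene that started on the opposite strand within 1000 nt was present at 102 of 1023 genes with a start peak (9.97%) and at 11.5% of genes without, a difference of −1.52 points whose interval, −3.31 to 0.540, includes 0. The sign was opposite to the gene in 45.9% of the 109 start peaks at such paired starts and in 46.9% of the 1019 others. Opposite-strand ends within 1000 nt were present at 20 of 168 genes with an end-side peak (11.9%) and at 8.52% of the others, and this interval too includes 0 (−0.714 to 9.17 points). Start peaks lay inside a long noncoding gene in 72 of 1128 cases (6.38%) and interior narrow peaks in 4.77%, a difference of 1.61 points (interval 0.208 to 3.27). Of all 1651 end peaks, 24 (1.45%) lay within 1000 nt of a small RNA gene. The rule leaves out peaks inside such genes, and the same share was not counted over interior narrow peaks. Whether 1.45% is high or low therefore cannot be said. On the X chromosome end windows held 22.2 narrow peaks per Mb (30 peaks) against 51.2 on autosomes, 0.433-fold (interval 0.291 to 0.620), and the interior showed a like ratio, 0.516-fold (interval 0.434 to 0.610). Single autosomes ranged from 34.7 per Mb on chromosome 19 to 64.0 on chromosome 4.

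Grouped by function, the shares of genes with an end peak were highest in the chaperone, cytoskeletal and Sertoli cell lists. The 16 lists are described by counts beside the 8.79% of all protein-coding genes over 5 kb; no list was tested, members differ in length and promoter, and the lists were written with earlier results of these data known. Among chaperone genes 9 of 26 held an end peak (34.6%, interval 19.4 to 53.8): Hsp90ab1, the cytosolic HSP90, held 2, and Hsp90b1 of the endoplasmic reticulum and the chaperonin subunit gene Cct8 held 1 each. Cytoskeletal genes stood at 8 of 25 (32.0%), among them the tropomyosin genes Tpm1 and Tpm3 and the talin gene Tln1, with 1 each. Splicing factor genes stood at 12 of 50 (24.0%, interval 14.3 to 37.4), 10 of them with a start peak and 2 with an end-side peak. Sfpq, a paraspeckle protein gene, and Luc7l2, which encodes a U1 snRNP partner, held 2 start peaks each, and Srsf5, an SR protein gene, 1 inside its end. Immediate early and stress genes stood at 5 of 21 (23.8%): Fosb with 7 and, with 1 each, Klf4, a zinc finger factor, and Btg1, an inhibitor of proliferation, among others.

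Translation factor genes stood at 7 of 30 (23.3%, interval 11.8 to 40.9). Of the 22 with known strand, 3 held a start peak and 3 an end-side peak, beside 7.63% and 1.25% of all genes of known strand, and 2 of the 7 were of unknown strand. Eif4a1 had both, while Eif5a (398 nt from its end) and the elongation factor gene Eef2 (119 nt) had 1 at the end, with the sign opposite to the gene in each. Hsp90b1, at 149 nt, Srsf5, at 777 nt, and Tpm3, at 452 nt, likewise had an end-side peak with the sign opposite to the gene. Of all end-side peaks, 108 of 182 (59.3%) bore the opposite sign.

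Cleavage and polyadenylation genes stood at 6 of 28 (21.4%, interval 10.2 to 39.5), all with start peaks; of all genes of known strand, 7.63% held a start peak and 1.25% an end-side peak. Papola, the poly(A) polymerase gene, held 2, at 113 and 293 nt, and Cstf1 and Cpsf2, which encode subunits of the complexes that recognise and cut the 3′ end, 1 each. Exosome and cofactor genes stood at 4 of 30 (13.3%, interval 5.31 to 29.7), also all with start peaks, a 0 at ends being near that 1.25%: Exosc8, a subunit of the ring, at 454 nt, Dis3, a nuclease subunit, at 130 nt, Srrt, a partner of the cap-binding complex, at 946 nt, and Zfc3h1 of the PAXT connection. Zfc3h1 was named after its values were seen. Chromatin regulator genes stood at 9 of 50 (18%), with 2 minus-sign start peaks in the remodeller gene Atrx, at 82 and 342 nt, 2 in Ash1l, a histone methyltransferase gene of unknown strand here, and 1 in the remodeller gene Chd3. Mitotic cell cycle genes stood at 6 of 41 (14.6%), with 2 in Ccne2, cyclin E2, and 1 each in Ccna2, cyclin A2, and Mcm7, a subunit of the replicative helicase.

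In the germ cell lists every interval included the 8.79% of all genes. Differentiating spermatogonia stood at 1 of 21 (4.76%, interval 0.846 to 22.7), the demethylase gene Kdm5b. Kit, the receptor used for the sort, held none, as did most genes over 5 kb. Kit is named here outside the rule for naming genes. Undifferentiated spermatogonia stood at 4 of 21 (19.05%, interval 7.67 to 40), among them the transcription factor genes Lhx1 and Etv5 and the cadherin gene Cdh1. Gfra1 of the same list, named after its values were seen, had 1 inside its end at 209 nt, with the sign of the gene. Genes of meiotic entry and prophase stood at 5 of 43 (11.6%, interval 5.07 to 24.5), each with 1 start peak, among them Rbm46, an RNA-binding protein needed for meiotic entry, Sycp2 of the synaptonemal complex and Hfm1, a helicase of crossover formation. Retinoic acid genes stood at 4 of 21 (19.05%): Rarg, a receptor, and Dhrs3, a retinal reductase, with a start peak, and Cyp26b1, whose enzyme breaks retinoic acid down, with 1 inside its end at 856 nt, opposite in sign to the gene, among others. Markers of other testis cells held end peaks as well: Sertoli cell markers at 6 of 21 (28.6%, interval 13.8 to 50.0), among them Aard, Clu and Ctsl, and Leydig and interstitial markers at 3 of 17 (17.6%, interval 6.19 to 41.0), namely Cyp17a1, Nr5a1 and Col1a2. Blood and vessel markers stood at 0 of 14 (interval up to 21.5%). Which cells of the sort the end peaks came from was not tested.

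**Figure D5:**
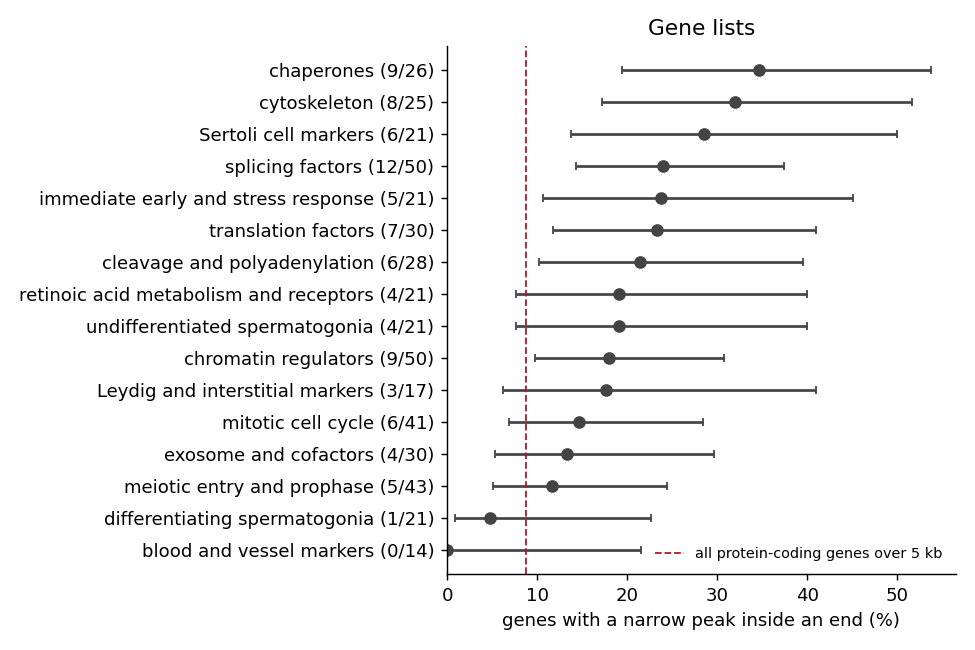
Share of the protein-coding genes over 5 kb in each list that hold a narrow peak inside an end (x axis, %), with 95% Wilson intervals and counts beside the names; the dashed line is the share over all such genes, 8.79%. Chaperones (34.6%) and cytoskeletal genes (32.0%) lie highest and blood and vessel markers (0 of 14) lowest.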

How the data were processed

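LACE-seq of MTR4 was made from 3 samples of KIT-positive testis cells, and 1 list of peaks, recorded under replicate 3, was used. Reads were handled with cutadapt 1.15 and Bowtie 1.0.0 on mm10, per the submitters' processing notes; settings of the peak caller are not given in the sources used here. The name of the deposited list points to the caller Piranha, deduplicated reads and merged replicates, which no label states and which was not checked. The authors deposited 4 columns (chromosome, start, end, sign), with all positions on a grid of 20 nt, and no count, signal or score, so no stricter threshold could be tried and the depth is unknown.

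Peaks were joined by midpoint to RefSeq genes of GRCm38.p6; strand and sequence came from RefSeq promoter windows on the same build. Exons were not told apart. Overlapping gene models were resolved to the nearest end. Densities divide peaks by the length of the windows, with short genes and small RNA genes left out. Shares have 95% Wilson intervals, differences Newcombe intervals and density ratios exact conditional binomial intervals; neighbouring peaks are not independent, so these are too narrow if peaks share a transcript. Functions were tested on simulated data. Of 530 names in 16 lists, 2 did not match. Python 3.11.15, pandas 2.3.3 and scipy 1.17.1 were used.

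The members and lists were chosen with earlier results of these data known. Genes named are the 10 with the most end peaks, the 3 with the most from each list, up to 8 hit at both ends (1 of which is not reported here) and the 6 whose windows are printed, ties going to the shorter gene; others are said to be outside the rule.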

Additional observations from a re-analysis of the deposited data

Results flagged for a closer look

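Peaks of 40 nt or more, which the comparisons leave out, also occurred inside gene ends: 40 of the 676 such peaks met the rest of the rule (5.92%, interval 4.38 to 7.96), against 10.9% of peaks of 20 nt. They are given here because no comparison used them. Of these 40, 28 lay inside a transcript start, 5 inside an end and 7 in genes of unknown strand, and 31 bore the minus sign.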

How the results depend on the processing

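The 8 main results were recomputed under 10 alternatives. The density ratio stayed above 1 and the CpG difference above 0 in each. The sign difference at ends stayed above 0 in the 8 alternatives that keep both signs, though its interval included 0 with a window of 500 nt. The opposite-sign share, 48.5% in the main setting, was 50.4% with a window of 2000 nt. The results on CpG and on the sign at ends by strand were added after seeing the data. None of these 8 left its interval, or a count its 1.5-fold range, on merging peaks of 1 sign less than 100 nt apart, leaving out peaks within 1000 nt of small RNA genes, taking all widths, keeping peaks in exactly 1 protein-coding gene, or leaving out genes with 3 or more end peaks. Plus-sign peaks alone gave 468 end peaks in 442 genes, a density ratio of 6.44, a start share of 81.0%, 33.1% in the first 250 nt, an opposite-sign share of 52.2% and a CpG difference of 3.50 points; minus-sign peaks alone gave a density ratio of 9.01, a start share of 88.1% and a CpG difference of 10.7 points. Windows of 500 nt and 2000 nt gave density ratios of 10.2 and 5.65, start shares of 89.6% and 79.2%, and 52.7% and 26.9% in the first 250 nt, as their width implies, and 500 nt a CpG difference of 10.1 points. The sign difference at ends ran from 14.7 to 25 points under the 8 alternatives that keep both signs. Genes over 10 kb gave a start share of 89.3%. The counts of end peaks in the 10 genes with the most were within 1.5-fold of the main ones in 70 of 100 cases; Fosb had 14 within 2000 nt, 3 within 500 nt and 5 after merging, and Gm51464 1 after merging. Strength, depth and replicate spread could not be examined, and leaving out a replicate was not run. No paired analysis was possible because the 3 samples form 1 group with 1 list of peaks.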
